A study of Mus musculus with 46 samples.

Results

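The regions described here are the peaks of interferon regulatory factor 3 (IRF3) in AgRP neurons that lie away from CTCF sites. They were taken from a list of 30387 IRF3 CUT&RUN peaks, of which 30344 lie on chromosomes 1 to 19 and X and 43 on other chromosomes. A peak was kept if it shared no base with any of the 50499 CTCF peaks of AgRP-positive nuclei on these chromosomes, which left 23311 peaks, or 76.8% of the 30344. These are called CTCF-free IRF3 peaks below, and the 7033 others CTCF-overlapping IRF3 peaks. The name holds for the AgRP list only: 14.3% of the CTCF-free IRF3 peaks overlapped a CTCF peak in at least 1 of the 4 lists from whole cerebellum.

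The study asked which regulatory regions and factors of AgRP neurons, the hunger-promoting neurons of the arcuate nucleus, respond to fasting and to leptin. IRF3 CUT&RUN was done on 1 sample of AgRP neurons from fed, untreated male mice of the IRF3-2D model, in which AgRP-IRES-Cre switches on a phosphomimetic, constitutively active IRF3 on top of the native protein. CTCF CUT&RUN was done on 1 sample of 3000 AgRP-positive nuclei and on 4 samples of whole cerebellum, also from fed, untreated males. The study's methods give an age of 6 to 11 weeks for mice used to isolate AgRP nuclei, and a separate age for CUT&RUN is not given in the sources used here. Chromatin accessibility (ATAC-seq) and RNA came from NuTRAP-AgRP males without IRF3-2D, aged 6 to 11 weeks, whose AgRP-IRES-Cre drives a GFP-tagged ribosomal protein and a tagged nuclear membrane protein. Fed mice ate ad libitum and received PBS, fasted mice were fasted for 18 to 20 h and received PBS, and leptin mice were fasted alike and received leptin at 5 mg/kg, all 3 h before collection. ATAC-seq had 2 libraries per state, each from 4 pooled mice and 10000 nuclei sorted for GFP, and a separate table held 2 libraries of AgRP-positive and 2 of AgRP-negative nuclei. RNA was bound to tagged ribosomes (TRAP) and had 3 fed, 4 fasted and 4 leptin libraries. All comparisons below therefore set peaks mapped in mice with active IRF3 beside accessibility and RNA of mice with native IRF3 alone.

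IRF3 is a transcription factor of innate immunity that, once phosphorylated by the kinase TBK1, enters the nucleus and switches on type I interferon and interferon-stimulated genes. It binds the interferon-stimulated response element (ISRE), a repeat of GAAA cores. In CUT&RUN, an antibody directs a nuclease to cut around the bound protein, and fragments from any open chromatin can add background. CTCF is a zinc-finger protein that binds a long motif at chromatin loop anchors and promoters in most cell types.

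Depth differed between libraries: 8263234 to 17190963 reads in peaks for the ATAC libraries of the 3 states, 8685497 to 11177208 for the sorted nuclei and 25581041 to 54511107 gene counts for RNA. The 8 AgRP neuron markers examined (Agrp and Npy among them) were all above a mean of 1 CPM (counts scaled to library size), with summed levels of 2600.2 to 3483 CPM in fed, 3923 to 7550.4 in fasted and 3139.7 to 7454 in leptin libraries. RNA of other cells was present at lower levels in all 3 states: 470 to 1021 CPM for 6 astrocyte markers, 444 to 845 for 7 oligodendrocyte markers, 138 to 194 for 5 POMC neuron markers, 82.9 to 173 for 6 tanycyte and ependymal markers and 15.2 to 39.5 for 6 microglia markers, with overlapping ranges between the states. The ribosome tag is driven in AgRP neurons, and how RNA of other cells came into the TRAP libraries was not tested. Number of cells, RNA per cell and capture by TRAP cannot be told apart in these bulk samples. The depth of the CUT&RUN libraries is not recorded in the peak lists, and the IgG control sample was not analysed here.

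Sequence was read in the central 300 bases of each peak from GRCm38, the assembly named mm10 in the processing notes. An ISRE match was defined as GAAANNGAAA on either strand. The windows below show a CTCF-free IRF3 peak of high maximum signal that lies in an ATAC peak and holds an ISRE match (Psmb3 is the nearest gene), then 2 windows at interferon genes with a match (Ifit3 and Mx2), and 1 at an interferon gene without one (Isg20). All are printed from the + strand, and capitals mark the ISRE match, which reads as TTTC cores where it lies on the other strand.
Psmb3, chr11:97703178-97703477, maximum signal 47: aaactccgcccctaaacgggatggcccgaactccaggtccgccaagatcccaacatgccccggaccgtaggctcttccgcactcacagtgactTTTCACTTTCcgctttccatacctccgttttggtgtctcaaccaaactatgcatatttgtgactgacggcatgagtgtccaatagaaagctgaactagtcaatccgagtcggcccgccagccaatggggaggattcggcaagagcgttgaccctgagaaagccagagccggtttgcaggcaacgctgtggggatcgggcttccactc
Ifit3, chr19:34583224-34583523, maximum signal 20: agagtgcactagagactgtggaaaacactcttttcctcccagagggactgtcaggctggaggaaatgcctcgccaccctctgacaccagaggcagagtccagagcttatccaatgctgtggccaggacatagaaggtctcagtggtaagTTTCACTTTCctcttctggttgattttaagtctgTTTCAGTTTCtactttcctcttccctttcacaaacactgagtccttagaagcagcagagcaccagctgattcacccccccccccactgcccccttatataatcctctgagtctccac
Mx2, chr16:97535066-97535365, maximum signal 14: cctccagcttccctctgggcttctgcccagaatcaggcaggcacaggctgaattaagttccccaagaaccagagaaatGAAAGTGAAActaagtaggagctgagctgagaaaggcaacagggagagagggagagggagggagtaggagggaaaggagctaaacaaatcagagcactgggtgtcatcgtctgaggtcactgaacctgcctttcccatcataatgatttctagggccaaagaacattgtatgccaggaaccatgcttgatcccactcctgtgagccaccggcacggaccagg
Isg20, chr7:78912498-78912797, maximum signal 21, no match: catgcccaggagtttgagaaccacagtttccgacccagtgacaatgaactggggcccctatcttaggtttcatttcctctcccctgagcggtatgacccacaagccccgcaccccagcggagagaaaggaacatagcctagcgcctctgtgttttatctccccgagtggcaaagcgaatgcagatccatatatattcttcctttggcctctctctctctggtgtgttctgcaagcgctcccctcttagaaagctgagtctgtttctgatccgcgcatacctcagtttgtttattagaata
Read in the GAAA orientation, the Psmb3 and Mx2 windows and 1 of the 2 matches of the Ifit3 window held the same 10 letters, GAAAGTGAAA. The second match at Ifit3 read GAAACTGAAA.

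Most CTCF-free IRF3 peaks were weak and lay in chromatin that was not called open. The list gives 2 values for each peak: the total signal, summed over its bases, and the maximum signal, the highest value at any base. The median maximum signal was 16 (quartiles 12 and 20, range 2 to 283) and the median total signal 1243 (1113 and 1473), beside 21 and 1598 for the CTCF-overlapping IRF3 peaks. The lowest total signal was 1019 in both sets, so that the list is truncated there. With 1 sample and no replicate, these values have no error.

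Of the 23311 CTCF-free IRF3 peaks, 4985 overlapped an ATAC peak of the 3 feeding states, or 21.4% (95% Wilson interval 20.9 to 21.9, counting error only). For the CTCF-overlapping IRF3 peaks the share was 86.0% (85.2 to 86.8). The intervals treat the peaks of 1 sample as independent and do not measure the spread between samples. The CTCF-free IRF3 peaks inside and outside ATAC peaks differed little in maximum signal, with medians of 17 and 16. Total signal was higher inside, with medians of 1346 and 1225 and upper quartiles of 1724 and 1424. The peaks inside and outside also differed in place. Of those inside ATAC peaks, 43.3% lay within 1 kb of a transcription start site, 31.9% in introns and 22.3% between genes, with a median distance of 8.85 kb to the nearest start site. Of the 18326 outside, 4.86% lay within 1 kb of a start site, 54.6% in introns and 37.2% between genes, at a median of 54.3 kb.

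The share of CTCF-free IRF3 peaks in open chromatin was higher at higher total signal, most of all at the top of the range. It was 16.0% in the lowest decile of peaks and 14.6% in the second, 18.6% in the sixth, 21.8% in the eighth, 26.1% in the ninth and 46.7% in the highest, which starts at a total of 1800. Promoter peaks made up 9.18% of the lowest and 28.4% of the highest decile. The share with an ISRE match stayed between 5.28% and 6.22% in all deciles, without a rise at the top. Peaks with a cerebellum CTCF peak rose alongside open chromatin, from 9.01% to 38.1%.

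**Figure D1:**
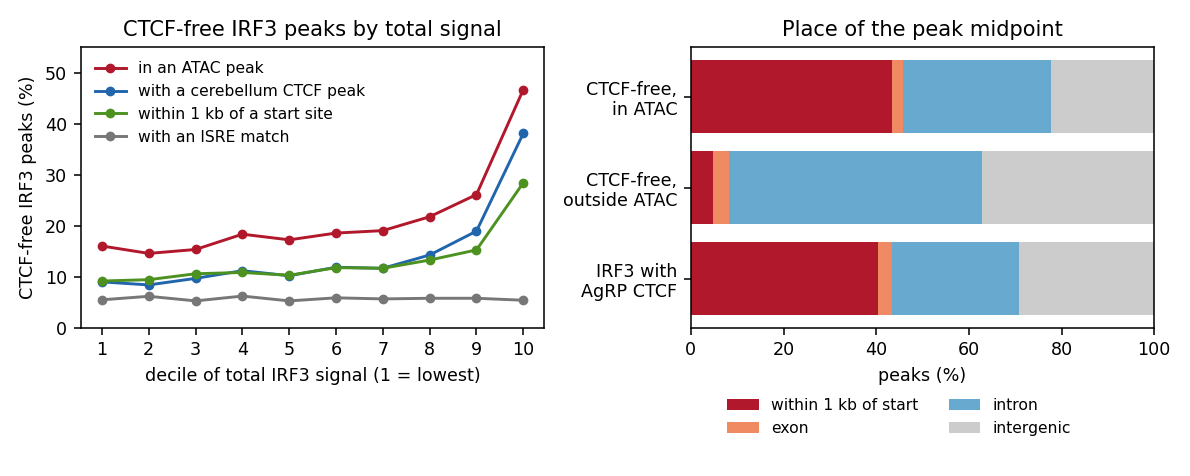
Left, the percent of CTCF-free IRF3 peaks with each feature (vertical axis) in deciles of their total CUT&RUN signal (horizontal axis), 1 point per decile of about 2331 peaks. Right, the percent of peaks whose midpoint lies within 1 kb of a start site, in an exon, in an intron or between genes, as stacked bars for 3 sets. The open-chromatin share reaches 46.7% in the top decile while the ISRE share stays near 5% to 6%.

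CTCF occupancy in another tissue marked many of the CTCF-free IRF3 peaks in open chromatin. Of the 4985 inside ATAC peaks, 2426 (48.7%) overlapped a CTCF peak of whole cerebellum, against 918 of the 18326 outside (5.01%) and 6290 of the 7033 CTCF-overlapping IRF3 peaks (89.4%). The share depended on the cerebellum sample, with 6.62% for 1000 nuclei, which gave 17994 peaks, and 37.9% to 42.7% for 10000 to 100000, which gave 54412 to 63282. For the sample given as 100000 nuclei, the label and the name of the deposited list disagree on the number, and the label was followed. When cerebellum CTCF peaks were also removed, 19967 peaks were left and 12.8% of them lay in ATAC peaks. At the edge of the rule, removing every IRF3 peak within 500 bases of an AgRP CTCF peak would leave 21993, and removing only those that share at least 50% of the shorter peak would leave 24237.

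The peaks with the highest signal were few and narrow. A maximum of at least 50 was reached by 56 CTCF-free IRF3 peaks, with a median width of 75 bases against 161 for the rest. Repeat-masked sequence filled at least 50% of the window in 35.7% of these 56 and in 12.5% of the others. The highest, at 283, lay 258 bases from the start of the histone gene Hist2h2be (chr3:96221211-96221543), inside an ATAC peak and with no masked base. The next was an intronic peak of Prkdc, a DNA repair kinase gene (240, chr16:15642802-15642865), whose window was 100% masked. Plxdc2 (165, intron) and Cldn34c1 (143, intergenic, X) were also among the highest 5. Reads from repeats may have been placed at one of several copies, and how multi-mapping reads were treated is not given in the sources used here.

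Among peaks inside ATAC peaks, those of Gad2, which encodes a GABA-synthesising enzyme (101, chr2:22588957-22589050), Tyrp1, a melanin synthesis gene that is only the nearest start site in the count table, at 831283 bases (90, chr4:80002903-80002991), and Eif3d, a translation initiation factor gene (71, chr15:77970636-77971178), were, beside Hist2h2be, among the highest 5. The Gad2 and Tyrp1 peaks lay near the start of other annotated transcripts. After these values were seen, the histone genes were counted as a group: 31 of 62 histone genes (50.0%) had a CTCF-free IRF3 peak within 1 kb, beside 10.8% of all genes with a start site. A CTCF-overlapping IRF3 peak lay within 1 kb of 20 of the 62 (32.3%), beside 12.2% of all genes, so that the excess was not particular to CTCF-free peaks. A histone gene was the nearest gene of 27 CTCF-free IRF3 peaks within 1 kb, 25 of them in ATAC peaks, with a median maximum of 25 (range 4 to 283). A cerebellum CTCF peak was present at 17 of the 27. Histone genes are short, clustered and near-identical in sequence, so that reads can be shared between copies.

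The X chromosome held fewer of these peaks than any autosome, with 4.77 per Mb against 8.47 to 10.2. For those in ATAC peaks the densities were 0.667 on X and 1.55 to 2.65 on the autosomes. The ATAC peaks themselves had densities of 19.9 and 42.8 to 60.0 per Mb, in the same order.

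The ISRE was about as frequent in CTCF-free IRF3 peaks as in the genome at large. A match was found in 4.81% of the 300-base windows inside ATAC peaks and in 5.94% of those outside, beside 4.05% at CTCF-overlapping IRF3 peaks, 4.15% at all ATAC peaks, 3.45% at all RefSeq promoter windows and 4.96% of all 300-base windows of chromosomes 1 to 19 and X. Base composition differed between those inside and outside ATAC peaks. GC content averaged 51.5% inside ATAC peaks and 37.6% outside, against 41.8% in the genome, with 11.2 and 1.96 CpG dinucleotides per window.

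Other motifs separated the peaks inside ATAC peaks from those outside. The promoter motif of NRF1, GCGCNNGCGC, was present in 6.66% of windows inside and 0.0982% outside. That of ETS factors, CCGGAAG, was present in 6.56% and 0.426%, and that of SP and KLF factors, GGGGCGGGG, in 7.86% and 0.327%. In promoters at large the shares were 6.26%, 8.92% and 11.5%, so that NRF1 inside ATAC peaks was near the promoter share and the ETS and SP/KLF motifs were below it, and the shares outside lay below the genome (0.181%, 0.849% and 0.517%). The cAMP response element, TGACGTCA, followed the same order, with 1.71% inside, 0.109% outside and 1.81% in promoters.

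The AP-1 motif, TGANTCA, to which FOS and JUN proteins bind, was present in 13.1% of windows inside ATAC peaks and 8.70% outside, against 31.2% at all ATAC peaks, 7.85% in promoters and 8.84% in the genome. The STAT motif, TTCNNNGAA, was found in 9.21% and 11.3%, beside 12.4%, 8.33% and 11.1%. The E-box CACGTG was present in 6.32% and 2.28%, beside 4.73%, 7.20% and 2.92%, and the NF-Y motif CCAAT in 33.7% and 37.5%, beside 32.9%, 37.6% and 40.5%. A core of the CTCF motif was matched in 4.11% inside and 1.21% outside, against 20.4% of CTCF-overlapping IRF3 peaks, 3.89% of all ATAC peaks, 1.66% of promoters and 0.417% of the genome. Each motif was searched on both strands, and none of these strings contains another. A match is a string of letters and not a bound site.

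**Figure D2:**
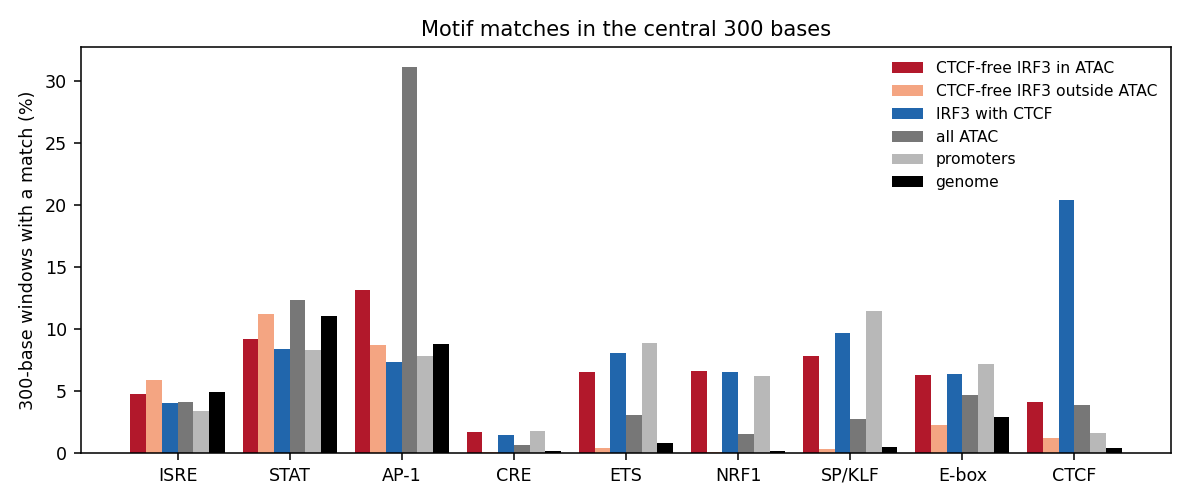
Percent of 300-base windows (vertical axis) with at least 1 match to each of 9 motifs (horizontal axis), for CTCF-free IRF3 peaks inside and outside ATAC peaks, CTCF-overlapping IRF3 peaks, all ATAC peaks, all promoters and the genome. ISRE bars are of like height in all sets, from 3.45% to 5.94%, whereas the AP-1 bar is highest for all ATAC peaks (31.2%) and the CTCF bar for CTCF-overlapping IRF3 peaks (20.4%).

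With fasting, more ATAC peaks with a CTCF-free IRF3 peak closed than opened, while among all ATAC peaks more opened. More also closed than opened among ATAC peaks with a CTCF-overlapping IRF3 peak alone. Of 5513 such peaks tested, 63 opened (1.14%) and 376 closed (6.82%). The 4985 CTCF-free IRF3 peaks in open chromatin touched 4796 ATAC peaks, of which 4568 passed the level filter (mean above 1 CPM). Of these, 261 were fasted-opened (5.71%) and 457 fasted-closed (10.0%) by edgeR's quasi-likelihood test, where a call took a false discovery rate (FDR) below 0.05 together with a log2 change of more than 0.5 in size. The same calls were made for 19.0% and 8.36% of all 102237 ATAC peaks tested. The median log2 fold change was -0.25 at the 4568 peaks, -0.29 at those with a CTCF-overlapping IRF3 peak alone and -0.04 over all. The order of the counts turned without fasted 2, where 190 were fasted-opened and 170 fasted-closed. Leaving out a single library moved the fasted-opened count by over 1.5 times without fasted 1 (168) and fed 1 (170), and the fasted-closed count without fasted 1 (252) and fasted 2.

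Leptin changed few of them. Relative to fasted mice, 35 were leptin-opened (0.766%) and 8 leptin-closed (0.175%), where 1.44% and 0.306% of all ATAC peaks tested were. These counts moved with every library: leptin-opened peaks numbered 10 without fasted 1, 19 without fasted 2, 4 without leptin 1, 5 without leptin 2, 57 without fed 1 and 55 without fed 2. Leptin-closed peaks numbered 0 without fasted 1 or without leptin 2, 1 without leptin 1, 19 without fed 1 and 20 without fed 2. The order of the leptin-opened shares was not steady either. Without fasted 1, leptin 1 or leptin 2, the share was higher at peaks with a CTCF-free IRF3 peak than over all ATAC peaks. With 2 libraries per state, an exact permutation test of any single value cannot go below p = 0.333. The fasted libraries are shared by both comparisons.

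Place and level accompanied these shares. Within 1 kb of a start site, 7 of 1877 tested peaks with a CTCF-free IRF3 peak were fasted-opened (0.373%) and 105 fasted-closed (5.59%), while 3.13% of 10459 ATAC peaks without an IRF3 peak at such sites opened and 3.33% closed. Further away, 254 of 2691 were fasted-opened (9.44%) and 352 fasted-closed (13.1%), while 23.0% of distal ATAC peaks without an IRF3 peak opened and 9.02% closed. The median level was 14.9 CPM for ATAC peaks with a CTCF-free IRF3 peak and 3.56 CPM for those without an IRF3 peak. In the range from 5 to 20 CPM, 9.30% of 1355 peaks with one opened and 12.7% closed, against 27.0% and 8.59% of 27065 without an IRF3 peak. Above 20 CPM the shares were 1.97% and 7.24% of 1976, against 10.8% and 5.70% of 8204. All 35 leptin-opened peaks lay over 1 kb from a start site, as did 1404 of the 1422 leptin-opened ATAC peaks without an IRF3 peak.

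**Figure D3:**
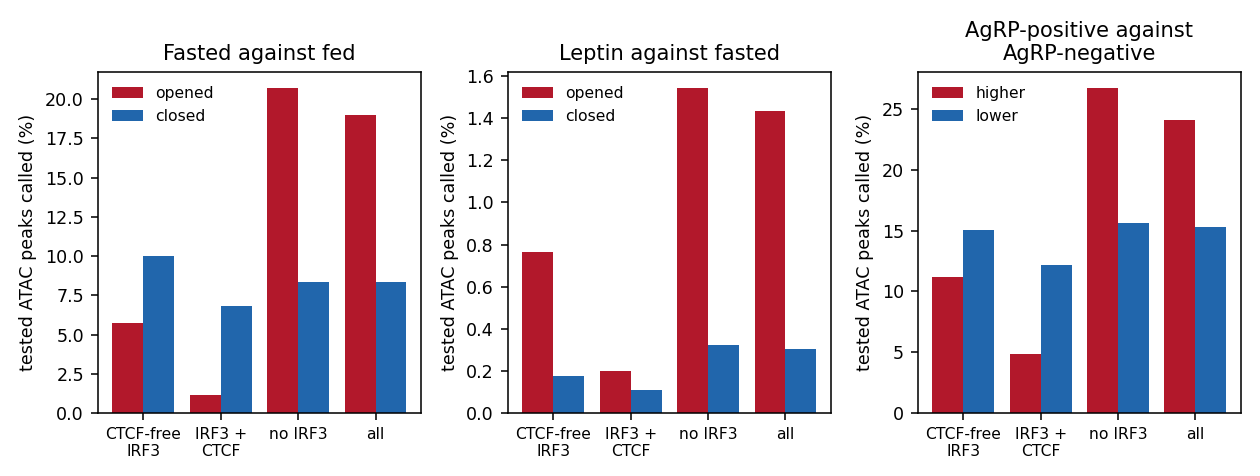
Percent of tested ATAC peaks called higher (red) or lower (blue) in 3 comparisons, for ATAC peaks with a CTCF-free IRF3 peak, those with a CTCF-overlapping IRF3 peak alone, those without an IRF3 peak, and all. In the fasted against fed panel the red bar is 5.71% for CTCF-free IRF3 peaks and 19.0% for all ATAC peaks; the vertical axes differ between panels.

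The AP-1 motif was as frequent in fasted-opened peaks with a CTCF-free IRF3 peak as in those without an IRF3 peak. In the 300 bases at the centre of the ATAC peak, TGANTCA was found in 192 of the 261 fasted-opened peaks with a CTCF-free IRF3 peak (73.6%), in 24 of the 457 fasted-closed ones (5.25%) and in 15.5% of all 4568. For ATAC peaks without an IRF3 peak the shares were 71.6% of those opened, 5.48% of those closed and 34.5% of all. The ISRE was found in 12 (4.60%) of the opened and 33 (7.22%) of the closed peaks with a CTCF-free IRF3 peak, beside 4.25% of all of them, and in 3.46% and 5.71% of peaks without an IRF3 peak. Of the 35 leptin-opened peaks, 13 held a STAT motif and 13 an AP-1 motif (37.1% each), and 0 held an ISRE, which with 35 peaks allows a share of up to 8.57% (counting error only). For leptin-opened peaks without an IRF3 peak these shares were 41.3%, 37.0% and 4.85%.

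Single peaks and genes are named below by size of change among those called, and only where the 2 groups' libraries were fully apart, so that a gap between the groups is part of the choice. An ATAC peak is named by its nearest start site, and a link to that gene was not tested. The 3 largest rises with fasting had low levels in both fed libraries. At the peak 225 kb from Hecw1, a ubiquitin ligase gene (chr13:14298523-14298929), levels were 0.124 and 0.433 CPM in fed, 6.95 and 7.16 in fasted and 9.65 and 7.59 in leptin libraries (log2 fold change with fasting 4.45 ± 0.50 SE, FDR = 1.876e-05). At Cops8, a signalosome subunit gene (chr1:90466016-90466563), fed libraries had 0.372 and 0.433, fasted 9.69 and 8.59 and leptin 11.6 and 9.71 CPM (4.45 ± 0.44). At Lmo2, a haematopoietic transcription cofactor gene (chr2:103930428-103930796), they had 0.372 and 0.433, 3.82 and 5.91, and 6.32 and 6.25 CPM (3.55 ± 0.49). In all 3, fasted and leptin libraries lay together, well above the fed libraries. The Cops8 and Lmo2 peaks lay 136691 and 27383 bases from the start site.

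The 3 largest falls showed the mirror image. At Il1rapl2, a synaptic receptor gene (chrX:137652533-137652900, 997 bases from its start), fed libraries had 3.23 and 3.10 CPM, fasted 0.0637 and 0.373 and leptin 0.486 and 0.614 (-3.79 ± 0.68, FDR = 0.0005661). At Grxcr1, a glutaredoxin-domain gene (chr5:68004074-68004280), the pairs were 2.98 and 2.45, 0.319 and 0.187, and 0.139 and 0.502 CPM (-3.37 ± 0.69). At Prkcb, a protein kinase C gene (chr7:122433354-122433855), they were 8.69 and 6.70, 0.701 and 0.809, and 1.25 and 0.781 CPM (-3.33 ± 0.43). Leptin libraries stayed near the fasted ones at all 3. The Grxcr1 and Prkcb peaks lay 27658 and 144296 bases from the start site. These 6 fasting calls held in every leave-one-out fit in which the peak was tested.

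The largest leptin-opened peaks were low in fasted libraries. They lay 51802 (Mir511), 17541 (Cul5) and 54786 (Habp2) bases from the nearest start site. Near Mir511, a macrophage microRNA gene (chr2:14312479-14313131), fasted libraries had 1.98 and 1.18 CPM, leptin 18 and 15 and fed 8.94 and 4.69 (3.38 ± 0.39 with leptin, FDR = 0.0005369). This peak had also fallen with fasting, as called in all 6 leave-one-out fits. Near Cul5, which encodes a scaffold of the ubiquitin ligases that SOCS proteins join (chr9:53649364-53650568), fasted libraries had 1.72 and 2.61, leptin 16.3 and 18.5 and fed 4.10 and 2.52 CPM (3.00 ± 0.35). Near Habp2, a plasma protease gene (chr19:56231978-56232724), they had 0.892 and 0.996, 7.22 and 6.47, and 2.36 and 0.937 CPM (2.85 ± 0.43). The Habp2 call was lost without fasted 1, leptin 1 or leptin 2 (FDR up to 0.0896), and the other 2 calls held throughout.

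The largest leptin-closed peaks were less steady. They lay 69988 (Synpr), 280021 (Oprm1) and 69639 (Mir496b) bases from the nearest start site. Near Synpr, a synaptic vesicle gene (chr14:13523684-13524349), fasted libraries had 15.4 and 6.66 CPM and leptin libraries 3.47 and 2.34 (-1.93 ± 0.43, FDR = 0.02425). Near Oprm1, the mu-opioid receptor gene (chr10:6478158-6478811), they had 23.7 and 12.3 against 6.87 and 4.02 (-1.73 ± 0.36). Near Mir496b (chr19:16245079-16245650), they had 5.93 and 3.67 against 1.11 and 2.06, with 12.5 and 10.8 in fed libraries (-1.57 ± 0.39). Each of the 3 leptin calls was lost without fasted 1, leptin 1 or leptin 2, and log2 fold changes ranged from -2.41 to -1.20, -2.16 to -1.18 and -2.10 to -1.18 over the leave-one-out fits. The Synpr and Mir496b ATAC peaks also touch an AgRP CTCF peak outside the IRF3 peak.

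**Figure D4:**
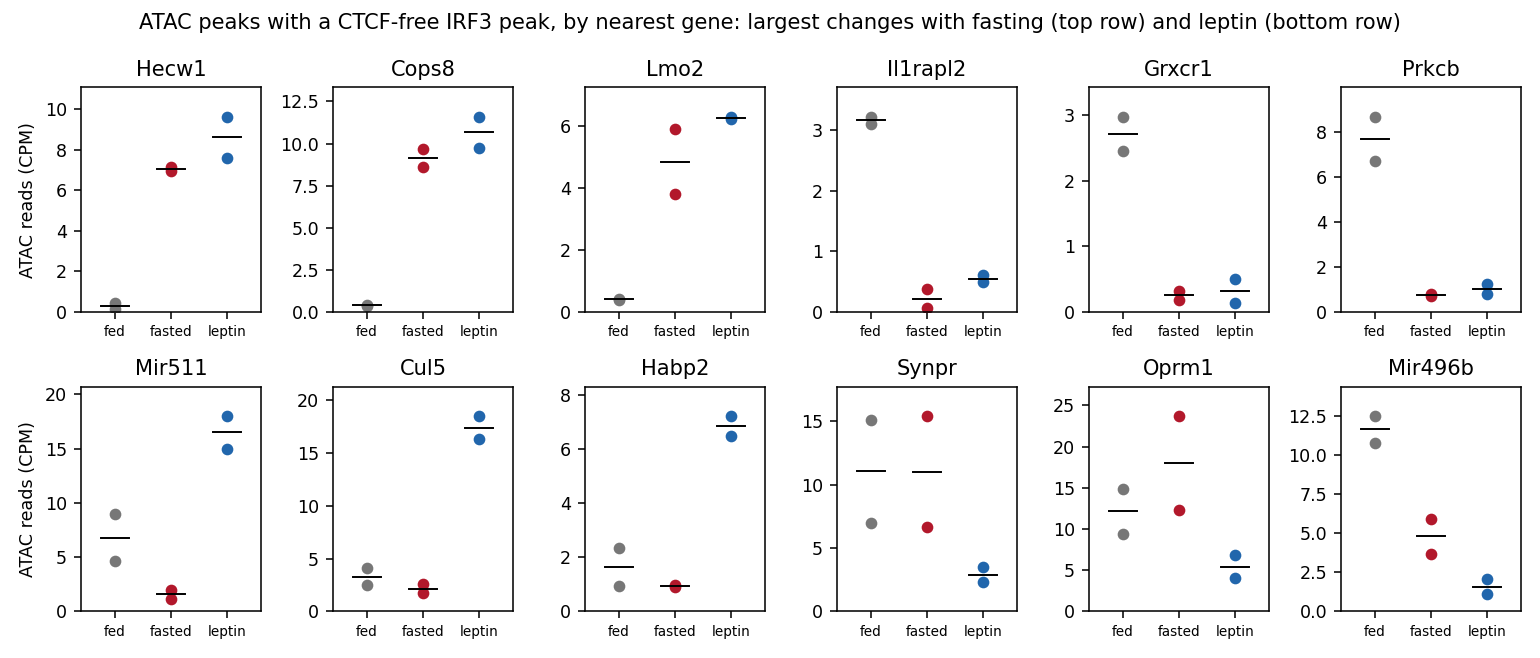
ATAC reads (CPM, vertical axes from 0, scales differ) in each of the 2 fed, 2 fasted and 2 leptin libraries (points) with their mean (line), for the ATAC peaks with a CTCF-free IRF3 peak that changed most with fasting (top row) and leptin (bottom row), titled by nearest gene. Fasted and leptin points lie together in the top row, and in the bottom row leptin points of Mir511, Cul5 and Habp2 lie above all others.

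Between sorted nuclei, 4064 ATAC peaks with a CTCF-free IRF3 peak were tested, 453 higher (11.1%) and 612 lower (15.1%) in AgRP-positive than in AgRP-negative nuclei, where 24.1% and 15.3% of all 66560 were. Of 5063 ATAC peaks with a CTCF-overlapping IRF3 peak alone, 247 were higher (4.88%) and 614 lower (12.1%). Library size alone as scaling moves the median of all peaks to 0.16 from 0.00. With it, 547 of the 4064 were higher (13.5%) and 363 lower (8.93%). The direction of the majority then flips, while 27.4% of all peaks were higher and 10.7% lower. The largest rises, each of over 3 log2 units, lay near Mtpn (19.6 and 11.2 CPM in positive, 0.862 and 1.66 in negative nuclei), Gm13986 (21.2 and 16.4, 1.35 and 1.89) and Tmem18, a gene linked to body weight (4.17 and 4.08, 0.615 and 0.118). The largest falls lay near Zfp664 (0.178 and 0.250 CPM in positive, 3.57 and 2.13 in negative nuclei), Chst9 (0.799 and 0.250, 6.52 and 3.79) and Sncaip (0.533 and 0.666, 6.28 and 5.33). The nearest start sites were 81440 (Mtpn), 60720 (Gm13986), 16595 (Tmem18), 60418 (Zfp664), 199882 (Chst9) and 34606 (Sncaip) bases away.

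ATAC peaks with a CTCF-free IRF3 peak made up 3.88% of the peaks of the 3 states and took 12.2% and 13.0% of reads in fed, 11.1% and 11.4% in fasted and 10.7% and 11.1% in leptin libraries. In the sorted nuclei they took 13.8% and 13.6% of reads in AgRP-positive and 15.3% and 15.2% in AgRP-negative nuclei. The fed libraries were the highest of the 6, and fasted and leptin libraries overlapped.

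The genes nearest to CTCF-free IRF3 peaks changed in RNA about as often as all genes. The peaks had 9352 nearest genes, of which 6536 passed the filter of a mean above 1 CPM. With fasting 188 rose (2.88%) and 69 fell (1.06%), beside 2.81% and 1.08% of all 13401 genes tested. With leptin 81 rose (1.24%) and 52 fell (0.796%), beside 1.19% and 0.604%. With the replicate number as a block the counts were 294 and 161 for fasting and 123 and 84 for leptin, while the shares of all genes were 4.41% and 2.58%, and 1.78% and 1.07%.

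Genes with a close peak or a peak in open chromatin were counted separately, and differences between these shares and those of all tested genes were not tested. For the 1992 tested genes with a CTCF-free IRF3 peak within 1 kb, 42 rose (2.11%) and 20 fell (1.00%) with fasting and 18 rose (0.904%) and 10 fell (0.502%) with leptin. For the 3139 genes nearest to one in an ATAC peak, 83 rose (2.64%) and 37 fell (1.18%) with fasting and 38 rose (1.21%) and 23 fell (0.733%) with leptin. Leaving out a library moved counts over all nearest genes by over 1.5 times: genes raised by fasting numbered 103 without fasted 3, 112 without fed 1 and 102 without fed 4. Genes lowered by fasting numbered 39 without fasted 3, 39 without fed 1 and 124 without fasted 4, and genes lowered by leptin 33 without fasted 1 and 31 without leptin 1. The shares of all genes tested moved as well. In the same order, 1.48%, 1.67% and 1.48% were raised by fasting, beside 1.575%, 1.715% and 1.56% of nearest genes. Lowered by fasting were 0.537%, 0.493% and 1.76%, beside 0.596%, 0.597% and 1.90%. Lowered by leptin were 0.418% and 0.396%, beside 0.505% and 0.474%.

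CTCF-free IRF3 peaks lay at the starts of several interferon genes. Of 26 canonical IRF3 targets, 7 had one within 1 kb (26.9%), all 7 inside an ATAC peak, and 11 within 10 kb (42.3%). Over all 22814 genes with a start site the shares were 10.8% and 25.5%, and over the 12873 tested in RNA 16.8% and 34.1%. The list was drawn up with earlier results of these data known, and 26 genes are few. Ifit3, Irf7, Isg20, Ddx58, Usp18 and Mx2 were among the 7. Rsad2, Ifih1, Parp14 and Herc6 had theirs further away. Isg15, Oasl1, Oasl2 and Ccl5, which are also well-known IRF3 targets, had none within 10 kb.

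The peak at Ddx58, which encodes the RNA sensor RIG-I (chr4:40239812-40240432, 294 bases), and the one at Isg20, an interferon-induced exonuclease gene (chr7:78912590-78912706, 776 bases), had a maximum of 21. At Ifit3, an interferon-induced antiviral gene, it was 20 (chr19:34583236-34583511, 157 bases). Irf7, a master regulator of interferon genes (chr7:141266035-141266526, 140 bases, with a cerebellum CTCF peak), had 15, the antiviral GTPase gene Mx2 (chr16:97535157-97535274, 865 bases) 14, and Usp18, a brake on interferon signalling (chr6:121246144-121246605, 469 bases), 7. The maxima of these 6 peaks, from 7 to 21, lay on either side of the median of 16. Of the 6, those at Ifit3 and Mx2 held an ISRE match in their central window.

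Accessibility at these promoters fell with fasting at Ifit3. Its ATAC peak had 10.9 and 11.8 CPM in fed, 4.46 and 6.29 in fasted and 9.72 and 11.6 in leptin libraries (fasting -1.08 ± 0.31, FDR = 0.014; leptin 0.99 ± 0.30, FDR = 0.123). The fed and fasted libraries did not overlap, and the rise with leptin did not pass the test. At Mx2 fasted libraries had 19.1 and 22.8 CPM and leptin libraries 33.9 and 32.4, with 25.8 and 18.2 in fed (leptin 0.66 ± 0.21, FDR = 0.149), again short of the threshold although both leptin libraries were the highest. At Isg20, Ddx58, Irf7 and Usp18 log2 fold changes lay between -0.28 and 0.26 with fasting and between -0.12 and 0.02 with leptin, none of which passed.

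In RNA, 2 of the 9 tested targets with a CTCF-free IRF3 peak within 10 kb rose with fasting, none fell, and 1 fell with leptin. Their median log2 fold changes were -0.05 and -0.27, beside 0.02 and -0.01 over all genes tested. In the whole list, 15 of 26 genes were tested, of which 2 rose and 0 fell with fasting and 1 rose and 1 fell with leptin. Of all genes tested, 2.81% rose and 1.08% fell with fasting, and 1.19% rose and 0.604% fell with leptin. Isg20 rose from 0.375 to 0.512 CPM in 3 fed libraries to 1.39 to 2.07 in 4 fasted ones, a log2 fold change of 1.98 ± 0.25 (SE, edgeR, FDR = 0.001868), and fell to 0.535 to 1.03 with leptin (-1.21 ± 0.21, FDR = 0.01185). No library of one group overlapped the next. The leptin call was just lost without leptin 1 (FDR = 0.05005), and in 3 leave-one-out fits the gene was below the level filter. Ddx58 rose from 5.64 to 7.03 CPM in fed to 8.69 to 11.4 in fasted libraries (0.65 ± 0.13, FDR = 0.01488). That call was lost without fasted 3, fed 3 or fed 4 (FDR up to 0.0729) and with library size alone. Leptin libraries had 7.15 to 8.81 CPM of Ddx58 (-0.31 ± 0.12, FDR = 0.3407).

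Rsad2, the antiviral enzyme viperin, had 2.29 to 2.64, 1.50 to 1.90 and 1.17 to 1.64 CPM (fasting -0.57 ± 0.16, FDR = 0.06908). It was called with the replicate block (-0.55). Irf7, Ifih1, Usp18, Parp14 and Herc6 had log2 fold changes of -0.28 to 0.22 with fasting and -0.48 to 0.57 with leptin, none called.

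Ifit3 and Mx2, whose peaks within 1 kb of the start held an ISRE match, were below the filter of 1 CPM. Further from the start, CTCF-free IRF3 peaks with a match also lay at Ddx58 (1398 bases) and Ifih1 (2800 bases), which passed the filter. Ifit3 had raw counts of 26, 39 and 21 in fed, 7, 31, 22 and 14 in fasted and 14, 18, 25 and 19 in leptin libraries, and these overlap. Mx2 had 12, 19 and 16 counts in fed, 19, 14, 21 and 8 in fasted and 46, 53, 86 and 28 in leptin libraries. Every leptin library was above every fasted one. In a fit of all genes with at least 1 count, Mx2 rose with leptin by 1.64 ± 0.32 on the log2 scale (edgeR, FDR = 0.02139), while Ifit3 had 0.01 ± 0.32. Of the 4 targets named above that had no peak, Oasl2 had 3.36 to 4.67 CPM in fed, 2.37 to 3.56 in fasted and 2.37 to 3.62 in leptin libraries, while Isg15 (5 to 22 counts), Oasl1 (0 to 13) and Ccl5 (0 to 2) were near the limit of detection in all 11 libraries.

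Upstream of IRF3, 2 of 21 pathway genes, Tbk1 and Ddx58, had a CTCF-free IRF3 peak within 1 kb (9.52%, beside 10.8% of all genes with a start site). Within 10 kb, 7 of the 21 had one (33.3%, beside 25.5%). Of the 6 tested, 1 (Ddx58) rose with fasting and 0 were called with leptin, and of 16 tested in the whole list 1 rose with each. Over all genes tested, 2.81% rose with fasting and 1.19% with leptin. The peak at Tbk1, the kinase that phosphorylates IRF3, lay 73 bases from its start (chr10:121586788-121586931, maximum 18). Tbk1 had 50.9 to 56.6 CPM in fed, 53.6 to 59.7 in fasted and 56.1 to 70.5 in leptin libraries, without a call. Irf3 itself had peaks 6762 and 6929 bases from its start, both outside ATAC peaks, and 4.21 to 6.14, 3.54 to 5.37 and 2.96 to 4.45 CPM, also without a call. Tlr3 and Ticam1, a receptor of double-stranded RNA and its adaptor, were not called (fasting -0.49 ± 0.24 and 0.47 ± 0.17), but Ticam1 was with the replicate block (0.54). Ticam2 was under the filter.

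The next list held IRF family genes together with the corepressor genes Irf2bp1, Irf2bp2 and Irf2bpl. Of its 12 genes, 7 had a CTCF-free IRF3 peak within 10 kb (58.3%), beside 25.5% of all genes with a start site. These were Irf1, Irf3, Irf4, Irf7 and the corepressor genes. The list has few genes. Of the 6 tested, 0 were called in either comparison. Of 9 tested in the whole list, 1 fell with fasting and 1 rose with leptin, beside 1.08% and 1.19% of all genes tested. The peak at Irf1, an interferon-gamma response factor, lay 82 bases from its start (chr11:53769834-53770029, maximum 11) in an ATAC peak that closed with fasting (40.6 and 45.9 CPM in fed, 26.6 and 34.4 in fasted, -0.50 ± 0.19, FDR = 0.04926), a value at the edge of both thresholds. Irf1 RNA had 8.55 to 12.2 CPM in fed and 6.74 to 8.41 in fasted libraries (-0.37 ± 0.15, FDR = 0.1893). The corepressor genes Irf2bp1, Irf2bp2 and Irf2bpl each had a peak between 98 and 1898 bases from its start and were not called in RNA, although Irf2bpl had 70.1 to 82.1 CPM in fasted and 91.7 to 100.0 in leptin libraries (0.36 ± 0.08, FDR = 0.03151, under the fold threshold). Irf4 was under the filter.

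Of 15 genes of leptin and STAT3 feedback, 5 had a CTCF-free IRF3 peak within 10 kb (33.3%), beside 25.5% of all genes with a start site. With leptin 3 of these 5 rose, as did 7 of the whole list and 1.19% of all genes tested. With fasting 1 of the 5 fell, and 1 rose and 3 fell in the whole list, while 2.81% of all genes tested rose and 1.08% fell. Socs3, the inhibitor of leptin receptor signalling, had 2 peaks 428 and 596 bases from its start (chr11:117969575-117969653 and chr11:117969720-117969844, maxima 23 and 14), both in 1 ATAC peak and without an ISRE match. Its RNA was 5.88 to 13.0 CPM in fed, 1.79 to 2.71 in fasted and 23.8 to 35.7 in leptin libraries (fasting -1.98 ± 0.25, FDR = 0.001805; leptin 3.73 ± 0.25, FDR = 3.662e-05). The 3 groups did not overlap. Accessibility of the ATAC peak did not follow: it had 61.7 and 73.2 CPM in fed, 57.0 and 76.5 in fasted and 67.5 and 58.6 in leptin libraries (leptin -0.08 ± 0.16).

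Jak2, the kinase bound to the leptin receptor, had peaks 386 and 790 bases from its start and rose with leptin from 35.1 to 40.6 CPM to 51.0 to 64.2 (0.52 ± 0.09, FDR = 0.01317). The call was lost without fasted 3 or leptin 1 and with library size alone. Bcl3, a coregulator of NF-kB, rose from 0.584 to 1.20 CPM to 1.71 to 2.72 (1.30 ± 0.26, FDR = 0.02666), with its peak 7041 bases away and outside ATAC peaks. That call was lost in 6 of 11 leave-one-out fits (without fasted 1, 2 or 4 or leptin 1, 3 or 4, FDR up to 0.0994) and with library size alone. Stat5b (106 to 126 CPM in fasted, 106 to 117 in leptin libraries) and the phosphatase gene Ptpn2 (10.7 to 15.4 and 12.2 to 18.9) were not called. Of 20 immediate early genes, 10 had a CTCF-free IRF3 peak within 10 kb (50.0%), beside 25.5% of all genes with a start site. Within 1 kb 1 had one (5.0%), beside 10.8%. CTCF-overlapping IRF3 peaks lay within 10 kb of 10 of the 20 and within 1 kb of 5. Of the 10 genes with a CTCF-free IRF3 peak within 10 kb, 9 were tested. Nr4a1 rose with fasting (1.61 ± 0.36), Jun, an AP-1 subunit gene, rose with leptin (1.10 ± 0.11, FDR = 0.0004912), and Nr4a1 and Nr4a3 fell with leptin. In the whole list of 19 tested, 6 rose with fasting, and 1 rose and 5 fell with leptin. Over all genes tested, 2.81% rose with fasting, and 1.19% rose and 0.604% fell with leptin. The Nr4a1 fasting call was lost without fasted 1 or 2 or fed 1 or 3 (FDR up to 0.113).

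**Figure D5:**
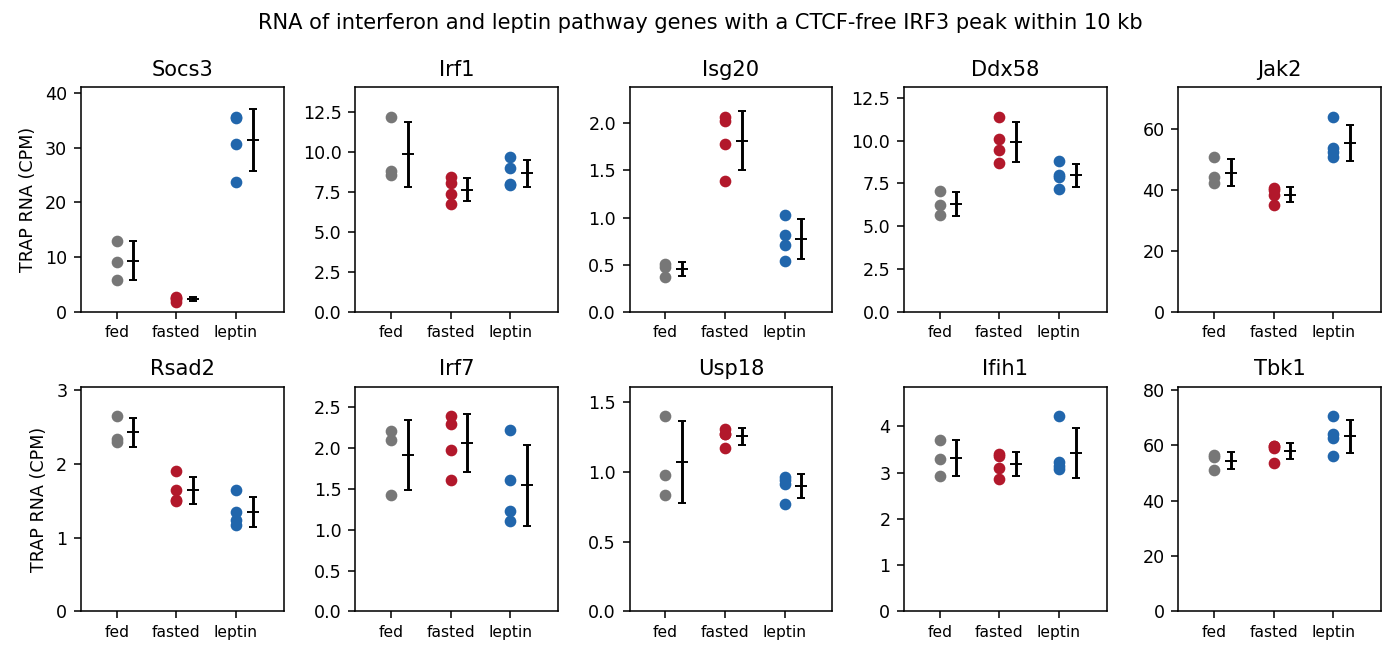
TRAP RNA level (CPM, vertical axes from 0, scales differ) in 3 fed, 4 fasted and 4 leptin libraries (points), with mean and SD beside them, for 10 genes of the interferon, IRF family and leptin lists with a CTCF-free IRF3 peak within 10 kb. Isg20 and Ddx58 are highest in fasted libraries, and Socs3 and Jak2 in leptin libraries.

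Outside these lists, the largest RNA changes at genes with a CTCF-free IRF3 peak within 10 kb were the following. With fasting, Lpin3, a phosphatidate phosphatase gene, rose from 0.458 to 0.793 CPM to 3.58 to 7.30 (3.11 ± 0.32, FDR = 0.001072), and Cdkn1a, the cell cycle inhibitor p21, from 14.5 to 20.8 to 95.7 to 127 (2.61 ± 0.18, FDR = 0.0001479). Hhip, an inhibitor of hedgehog signals, rose from 20.3 to 30.2 CPM to 101 to 175 (2.45 ± 0.31), and Nmb, which encodes neuromedin B, from 1.78 to 2.07 to 6.54 to 10.7 (2.09 ± 0.29). The peaks lay 1206, 4272, 1897 and 961 bases from the starts, and only that of Cdkn1a was in an ATAC peak. Leptin lowered Hhip to 41.4 to 92.2 CPM (-1.30 ± 0.26, FDR = 0.02807), a call lost in 6 of 11 leave-one-out fits (without fasted 1, 2 or 3 or leptin 1, 2 or 4) and with library size alone.

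Among genes lowered by fasting were 2 of the circadian clock. Bhlhe40, a clock-linked repressor gene, fell from 45.4 to 57.2 CPM in fed to 17.7 to 27.6 in fasted libraries (-1.24 ± 0.16, FDR = 0.002141). Its peak lay 574 bases from the start (chr6:108659980-108660130, maximum 28), in an ATAC peak that closed as well, from 152 and 158 CPM to 93.1 and 105 (-0.65 ± 0.12, FDR = 0.0005566). Per2, a core clock gene with a peak 438 bases from its start (chr1:91459721-91459802, maximum 32), fell from 33.2 to 65.5 CPM to 17.1 to 22.6 (-1.09 ± 0.23, FDR = 0.02044), a call lost without fasted 1 or fasted 3. A2m, a protease inhibitor gene, fell from 7.26 to 12.8 CPM to 3.26 to 4.53 (-1.24 ± 0.28, FDR = 0.02949), with its peak 29 bases from the start. That call was lost without fasted 1, 2 or 3 or fed 1 or 3 (FDR up to 0.142) and with library size alone. Ccdc187 fell from 2.59 to 3.26 CPM to 1.13 to 1.54 (-1.11 ± 0.15).

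With leptin, Arid5a, an RNA-binding stabiliser of Stat3 transcripts with a peak 126 bases from its start (chr1:36307583-36307672, maximum 23), rose from 4.82 to 6.43 CPM in fasted to 18 to 27 in leptin libraries (2.07 ± 0.15, FDR = 6.065e-05). C1qtnf7, a C1q-related secreted factor gene, rose from 2.46 to 5.16 CPM to 9.13 to 21.9 (2.32 ± 0.38, FDR = 0.00856), Steap1, a metalloreductase family gene, from 0.892 to 1.69 to 2.71 to 5.80 (1.76 ± 0.29), and Adamts8, a metalloprotease gene, from 1.74 to 2.15 to 4.16 to 7.80 (1.73 ± 0.19). All 4 had a peak in an ATAC peak, and the calls held in all 11 leave-one-out fits. None of those 4 ATAC peaks was called with leptin, with log2 fold changes of 0.13 to 0.75, while that of Adamts8 had closed with fasting (-1.20 ± 0.40, FDR = 0.0328).

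The nuclear receptor genes Nr4a1 and Nr4a3, which respond early to neuronal activity, were lowered by leptin. Nr4a1 fell from 12.7 to 34.1 CPM in fasted to 4.13 to 8.72 in leptin libraries (-1.87 ± 0.33, FDR = 0.01185), and Nr4a3 from 23.5 to 40.1 to 11.4 to 15.6 (-1.25 ± 0.25, FDR = 0.02629). The Nr4a3 call was lost without fasted 1, 2 or 4 or leptin 1, 2 or 3 (FDR up to 0.0921), while that of Nr4a1 held throughout. Lrrc1, a scaffold protein gene, fell from 66.5 to 80.0 CPM to 28 to 33.2 (-1.29 ± 0.10, FDR = 0.0001107), after a rise with fasting from 39.3 to 53.5 CPM (0.68 ± 0.11). The peaks lay 8098, 2285 and 4061 bases from the starts, and the ATAC peaks at Nr4a1 and Nr4a3 were not called (leptin -0.20 ± 0.17 and -0.29 ± 0.14).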

How the data were processed

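The authors aligned RNA reads with HISAT2 and counted them with featureCounts on a GRCm38 annotation modified to minimise overlapping genes, and deposited raw counts per gene. For ATAC-seq the authors aligned reads to mm10 with Bowtie2, called peaks with MACS2, merged them with bedtools and deposited raw counts per peak. The IRF3 list was deposited as SEACR peaks with total and maximum signal. The name of this list does not mention IRF3 and differs from the one in the IRF3 sample's label. It was taken as that sample's list because it was the only SEACR list and this was the only sample labelled with one. The CTCF lists were deposited as MACS2 peaks with a fold enrichment (a ratio) and −log10 p- and q-values. Tools are named as in the submitters' processing notes, and versions, SEACR settings, scaling and control of the IRF3 list are not given in the sources used here. The authors' log2 CPM tables and the IgG sample were not analysed here.

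The members and lists were chosen with earlier results of these data known. Groups came from the labels. Overlaps of at least 1 base were found with bedtools 2.31.1, and tables with Python 3.11.15, NumPy 2.4.6, pandas 2.3.3 and SciPy 1.17.1. Counts were tested with edgeR 4.0.16 (R 4.3.3), with TMM scaling, a quasi-likelihood test, Benjamini-Hochberg adjustment and a mean above 1 CPM. The 3 states were fitted together, and features with an FDR below 0.05 and a log2 change of more than 0.5 in size were called. CPM values are TMM-scaled. Scripts were tested on simulated data with known changes. Errors of fold changes are standard errors, and p-values measure the spread between these samples, where RNA libraries and those of the 3 ATAC states are each a pool of 4 mice. Start sites came from GENCODE for 22324 genes matched by name and 490 through an older symbol, of 31854. Sequence came from GRCm38 (RefSeq) in windows of 300 bases, beside 8530872 genome windows and 32585 RefSeq promoter windows, with peaks off chromosomes 1 to 19 and X left out.

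Named ATAC peaks were the 3 largest called changes in each direction, and named genes the 5 largest among genes with a peak within 10 kb, both only where the libraries of the groups did not overlap. The 5 highest peaks by maximum signal, those 5 in ATAC peaks, list genes with a peak within 10 kb and the IRF3 targets the study names were also named. For RNA, residuals of libraries with the same replicate number correlated at r = 0.536 to 0.814 over 10 pairs. Those of different numbers had a median of -0.236 over 30 pairs, with a range of -0.642 to 0.642 that overlaps the first. The numbers may therefore pair the libraries, and the blocked counts are given. Named calls come from the fit without the block unless stated. Alternatives were other scalings, no level filter, DESeq2 1.42.0, the replicate block, leaving out each library, other overlap rules, and CTCF peaks with a q-value of at most 0.01, the last chosen after seeing the data. Results for some named items are not reported here.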

Additional observations from a re-analysis of the deposited data

Results flagged for a closer look

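Of 74 groups of 4 RNA libraries examined for a library far from the other 3, 5 had one, and chance flags about 1 in 20 groups. C1qtnf7 had 5.16 CPM in fasted 1 and 2.46 to 2.85 in the other fasted libraries. Ifih1 had 4.22 CPM in leptin 4 against 3.07 to 3.24. Ticam1 had 5.86 CPM in leptin 3 against 5.33 to 5.42. Fasted 4 was the low library for Irf2bp1, with 60.8 CPM against 78.2 to 80.1, and for Tbk1, with 53.6 against 58.9 to 59.7.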

How the results depend on the processing

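No direction of a named peak or gene turned under any alternative run, but the order of some counts did. Fasted-closed peaks no longer outnumbered fasted-opened ones without fasted 2. In the sorted nuclei, lower peaks no longer outnumbered higher ones with library size alone. The number of CTCF-free IRF3 peaks fell to 10399 and their median maximum signal rose to 20 when only IRF3 peaks at or above the list's median maximum of 17 were used. The share in ATAC peaks was 19.6% with CTCF peaks widened by 500 bases, 23.6% with a CTCF overlap of at least 50%, 12.8% with cerebellum CTCF peaks removed as well, 24.1% with the stricter IRF3 list and 23.5% with CTCF peaks at a q-value of at most 0.01, chosen after seeing the data. It was 18.6% with an ATAC overlap of at least 50% and 18.3% with the sorted-nuclei table. With the stricter IRF3 list, 111 ATAC peaks were fasted-opened, 231 fasted-closed, 14 leptin-opened and 2 leptin-closed, and 210 were higher and 289 lower in AgRP-positive nuclei. Only 3 leptin-closed peaks were left among ATAC peaks without an AgRP CTCF peak.

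For ATAC-seq, same-numbered libraries correlated at r = -0.00 to 0.16 in the 3 states and 0.10 in the sorted nuclei. With 2 libraries per group, different numbers give the same values with opposite sign, so that these values cannot settle pairing. By the study's account, AgRP-positive and AgRP-negative nuclei came from the same pools. The block gave 472 higher (11.61%) and 636 lower (15.65%) peaks there, beside 25.11% and 16.24% of all peaks. With the replicate block, leptin-closed peaks numbered 26, and the fasted-opened, fasted-closed and leptin-opened counts were 295, 522 and 48. In that order, these were 0.569%, 6.46%, 11.4% and 1.05% of the tested peaks with a CTCF-free IRF3 peak. Over all ATAC peaks tested the shares were 0.994%, 20.6%, 9.97% and 2.30%. With library size alone, 363 peaks were lower (8.93%) and 547 higher (13.5%) in AgRP-positive nuclei, beside 10.7% and 27.4% of all peaks.

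Genes raised by fasting numbered 78 with library size alone, 294 with the replicate block, 42 within 1 kb, 94 within 10 kb, 353 for all genes within 200 kb, 83 for peaks in ATAC peaks and 122 with the stricter IRF3 list. Genes lowered by fasting numbered 104 with DESeq2 and, in the order of the settings from the block on, 161, 20, 40, 137, 37 and 45. Genes raised by leptin numbered 52 with library size alone and then 123, 18, 44, 150, 38 and 50. Genes lowered by leptin numbered 22 with library size alone, 84 with the block, 10 within 1 kb, 31 within 10 kb and 23 in ATAC peaks. The settings of distance, ATAC overlap and the stricter list count other numbers of genes, and shares moved as well. Of tested genes, 2.88% of all nearest genes and 2.11% of those within 1 kb were raised by fasting. With library size alone, 1.19% of nearest genes and 1.10% of all genes tested were raised by fasting. For leptin, 0.796% and 0.769% were raised and 0.337% and 0.269% lowered. DESeq2 called 1.59% and 1.60% lowered by fasting. The cause of these changes was not tested.

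Leaving out 1 library gave 168 to 280 fasted-opened, 170 to 520 fasted-closed, 4 to 57 leptin-opened and 0 to 20 leptin-closed peaks, 362 to 374 higher and 489 to 529 lower peaks in AgRP-positive nuclei, 102 to 234 genes raised and 39 to 124 lowered by fasting, and 54 to 98 raised and 31 to 52 lowered by leptin. A lone library in a group was assumed to vary like the other groups. Of values for named peaks and genes, 54 lost and 1 gained a call in these fits and 866 did neither. In the other fits 7 lost a call, all with library size alone, 5 gained one and 458 did neither. The IRF3 and CTCF lists have 1 sample each and no replicate error, and 2 ATAC libraries per group limit the smaller counts.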
